A study of Homo sapiens with 12 samples.

Results

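RNA-seq libraries of cells carrying FR2 were compared with libraries of cells carrying hnCD16, 3 against 3, which makes 6 of the 12 libraries of the series. The study describes the cells of all groups as YT. YT is an established human lymphoid line described as NK-like, and it lacks CD16 of its own. The hnCD16 construct is a high-affinity, non-cleavable CD16a with its native cytoplasmic tail. FR2 keeps the outer and membrane-spanning parts of that receptor and carries the cytoplasmic domains of DAP10 (gene HCST) and CD3ζ (gene CD247) in place of the tail. The other libraries, shown for orientation, are 3 of FR1, which carries a 2B4 (gene CD244) domain in addition, and 3 of CTRL, which carries eGFP alone. Cells of each group were transduced with lentivirus under the hEF1A promoter, sorted for eGFP as a pool and not stimulated for this assay, so a group is a single sorted population per construct. The labels do not say that the 3 replicates were separate cultures, and the p-values therefore measure the spread between these libraries only.

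The question of the comparison is which genes differ between unstimulated cells that carry FR2 and unstimulated cells that carry hnCD16. Transcription factors bind DNA and set which genes a lymphocyte transcribes. Secreted proteins carry its signals and its cytotoxic load to other cells, and metabolic enzymes supply energy, membranes and the building blocks of growth. These 3 classes were listed in 23 groups, 3258 entries in all, of which 3003 were in the table and 2224 passed the filter on low counts. Levels are given as CPM, counts scaled to a common library size after TMM normalization, and the library totals lay between 17714550 and 18729013 counts. A gene counted as differentially expressed (DEG) where its log2 fold change was 1 or more in either direction and edgeR's adjusted p did not exceed 0.05. Of 13657 genes tested, 5391 (39.5%) were DEGs of FR2 against hnCD16, 2681 (19.6%) higher and 2710 (19.8%) lower in FR2. The count of every class below is to be read against these shares.

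The genes whose sequence the constructs carry were measured first. FCGR3A (CD16a) was at 0 CPM in CTRL, at 26.1, 24.5 and 24.5 CPM in the hnCD16 libraries and at 62.1, 64.0 and 57.9 CPM in FR2, a log2 fold change of 1.29 ± 0.0587 (SE, adjusted p = 6.84e-12). FCGR3B, a near-identical neighbour to which the same reads can be assigned, had 2.85 ± 0.524 CPM in hnCD16 and 7.11 ± 0.809 CPM in FR2 (SD, n = 3), and its value is uncertain. The FR2 domain donors HCST and CD247 differed by 0.87 and 0.55 on the log2 scale, below the fold threshold. CD244, which FR2 does not carry, was at 9.84 ± 0.332 CPM in hnCD16 and 115 ± 4.06 CPM in FR2 (log2 fold change 3.55, adjusted p = 7.73e-19).

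Lineage markers separated the 2 groups in the same contrast as every result below. YT is labelled NK-like, yet several defining NK genes were close to 0 in the libraries labelled hnCD16. The perforin gene PRF1 had 0.414 CPM there and 543 CPM in FR2, NCR1 had 0.0361 against 28.3 CPM, and IL2RB had 0.933 against 606 CPM. Of 15 NK cell genes in the table, 13 were tested, 7 were higher in FR2 and 3 lower. The lower genes were NCR3, at 5.58 CPM in hnCD16 and 0.131 CPM in FR2, CD7, at 30.2 and 1.17 CPM, and FCER1G. FCER1G was at 0.881 and 0.417 CPM, and its libraries overlapped between the groups. KLRD1, HCST and CD247 were not called. The summed level of the NK list ran from 158 to 171 CPM in hnCD16 and from 2146 to 2243 CPM in FR2. The FR2 sum came mainly from NKG7 (745 CPM), IL2RB and PRF1. T cell genes mostly went the opposite way, 10 of 12 tested lower and 1 higher in FR2. Their sums were 898 to 941 CPM in hnCD16 and 184 to 198 CPM in FR2. CD3D had 521 CPM in hnCD16 and 0.0937 CPM in FR2, and CD3E had 104 and 39.6 CPM. The higher gene was CD28, at 3.09 CPM in hnCD16 and 119 CPM in FR2. LAT, at 32.7 and 27.5 CPM, was not called. Of 19 HLA genes tested, 18 were higher in FR2 (sums of 91.6 to 103 CPM in hnCD16 and 8156 to 8737 CPM in FR2). HLA and KIR genes are uncertain, since their copies share reads. The summed KIR level was 97.4 to 104 CPM in hnCD16 and 83.2 to 88.3 CPM in FR2, and 2 of 3 tested KIR genes were lower and 1 was higher in FR2. These sums came mainly from different genes. KIR3DL2 had 97.6 CPM in hnCD16 and 0.0945 CPM in FR2, and KIR2DL4 had 0.0540 and 84.5 CPM. The B cell list had sums of 9.08 to 13.3 CPM in hnCD16 and 0.168 to 0.400 CPM in FR2, both tested genes being lower, and the myeloid list had sums of 6.64 to 7.81 CPM and 15.6 to 16.5 CPM, 3 of 5 tested genes being higher in FR2. The same lists set FR1 beside FR2 and CTRL beside hnCD16: the NK sums were 2059 to 2185 CPM in FR1 and 149 to 162 CPM in CTRL, and the T cell sums 151 to 156 CPM and 789 to 904 CPM. All 3 hnCD16 libraries shared this pattern, so no count below could be made without the libraries that go against the label. The construct and the cell population that carries it cannot be told apart in this comparison.

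Transcription factors were more often lower than higher in FR2. Of 843 tested, 299 (35.5%) fell and 163 (19.3%) rose, with a median log2 fold change of -0.26 against -0.03 over all genes tested. The excess of lower calls lay in the homeobox group (24 of 58 lower, 10 higher) and in the ZNF genes described below (200 of 465 lower, 41 higher). Other groups ran the other way. Helix-loop-helix factors had 19 of 41 members higher and 10 lower, signal-responsive factors 24 of 63 higher and 9 lower, and nuclear receptors 14 of 34 higher and 7 lower. Lymphoid lineage regulators divided nearly evenly, with 21 of 58 higher and 19 lower, as did the KLF, SP and PRDM families (14 of 52 each way) and the SOX, FOX and E2F families (20 of 72 higher, 16 lower).

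Among lymphoid regulators, IRF4 and ZEB2 rose from near absence. IRF4, which drives effector and plasma cell programmes, had 0.544, 0.540 and 0.425 CPM in the hnCD16 libraries and 751, 730.5 and 749 CPM in FR2 (log2 fold change 10.51, adjusted p = 2.82e-21). ZEB2, a repressor active in terminal NK and effector T cell maturation, had 0 counts in every hnCD16 library and 98.2, 91.3 and 101 CPM in FR2, at least 599-fold higher when set against 3 counts in each hnCD16 library. MYB, a progenitor factor, was detected in both groups and fell from 702, 731 and 684 CPM to 70.2, 72.5 and 70.3 CPM, 9.94-fold (log2 fold change -3.31 ± 0.0485 SE, adjusted p = 1.10e-19). ZNF521, a zinc finger factor of early progenitors, had 95.1 ± 4.74 CPM in hnCD16 and 2 counts in total over the 3 FR2 libraries, a ratio of 2521 (95% exact interval 698 to 20823, counting error only). The groups did not overlap for any of these genes. They overlapped for only 5 of the 113 named genes, many of which were chosen for a large change, so this is a description. The share over all genes tested is not given here.

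The homeobox group held both the gain of HOPX and the loss of HHEX. HOPX, an atypical homeodomain protein without DNA binding of its own, had 2 counts in all hnCD16 libraries together and 222, 222 and 215 CPM in FR2, a ratio of 6126 (1696 to 50593). It was at 123, 124 and 119.7 CPM in FR1. HHEX, a regulator of early blood and lymphoid development, had 76.7, 73.1 and 69.9 CPM in hnCD16 and 0 counts in every FR2 library, at least 431-fold lower. ADNP, the other highly expressed member, had 96.4 ± 3.10 CPM in hnCD16 and 140.1 ± 0.151 CPM in FR2, a difference below the fold threshold.

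The helix-loop-helix factors showed the same division. MSC (musculin), a repressor that B and T cells can induce, had 2 counts in total in hnCD16 and 56.6, 56.0 and 56.1 CPM in FR2, a ratio of 1567 (433 to 12942). LYL1, a factor of blood progenitors, had 33.9, 32.8 and 31.3 CPM in hnCD16 and 0 counts in FR2, at least 193-fold lower. HES1, the repressor downstream of NOTCH, fell 165-fold, from 75.6, 72.3 and 66.5 CPM to 0.504, 0.509 and 0.286 CPM. SREBF2, which controls sterol synthesis genes, rose 2.35-fold to 226 ± 3.18 CPM. The E protein TCF3, the partner of many of these factors, was at 137 ± 6.95 CPM in hnCD16 and 155 ± 0.785 CPM in FR2 (log2 difference 0.18, below the threshold).

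Among signal-responsive factors ATF4, the factor of the amino acid and unfolded protein responses, fell 2.17-fold, from 352 ± 22.5 to 162 ± 3.01 CPM. SMAD7, the inhibitory SMAD of TGF-β signalling, had 0 counts in hnCD16 and 8.54 ± 0.272 CPM in FR2, at least 52.9-fold higher. CEBPE, a granulocyte factor, had 7.67 ± 0.501 CPM in hnCD16 and 2 counts in total in FR2, a ratio of 203 (55.9 to 1683).

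The mineralocorticoid receptor NR3C2 showed the highest fold change of the nuclear receptors named here: it had 0.598, 0.324 and 0.584 CPM in hnCD16 and 79.4, 70.3 and 76.5 CPM in FR2, 150.1-fold more (adjusted p = 4.93e-18). RXRA, the shared partner of many nuclear receptors, was at 8.93 ± 0.915 CPM in hnCD16 and had 2 counts in total in FR2, a ratio of 236 (65.1 to 1958). The glucocorticoid receptor NR3C1 was at 84.3 ± 6.01 and 109.6 ± 2.12 CPM, and NR2C2 at 89.7 ± 4.41 and 75.8 ± 1.21 CPM, both below the fold threshold. In the remaining families SOX4, a factor of immature lymphocytes, fell from 142, 129 and 126 CPM to 0.392, 0.170 and 0.229 CPM, a ratio of 501 (298 to 917, adjusted p = 8.87e-19). WT1 had 23.6, 24.2 and 24.3 CPM in hnCD16 and 0 counts in FR2, at least 142-fold lower. MEF2D rose 19.2-fold, from 14.5 ± 0.791 to 278 ± 11.7 CPM. KLF11 had 1 count in all hnCD16 libraries together and 7.73 ± 0.690 CPM in FR2, a ratio of 431 (76.9 to 17057). DMRT2 had 0 counts in hnCD16 and 5.49 ± 0.541 CPM in FR2. The general factors SP3 and YY1 and the chromatin protein HMGA1 differed by -0.75, -0.73 and -0.62 on the log2 scale, and none passed the fold threshold.

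ZNF genes, whose symbols are ZNF and a number, form the largest group of factors. Most encode DNA-binding proteins with arrays of zinc fingers, many carry a KRAB repressor domain, and many of them lie in clusters on chromosome 19. Of 465 tested, 200 (43.0%) were lower and 41 (8.82%) higher in FR2, with a median log2 fold change of -0.57. Placed by GENCODE v44 on GRCh38, 236 lie on chromosome 19, and 141 of these (59.7%) were lower and 3 (1.27%) higher. Of 226 ZNF genes on other chromosomes, 57 (25.2%) were lower and 38 (16.8%) higher, and their median was 0.01. Genes of chromosome 19 outside the group did not share the shift: of 822 tested, 136 (16.5%) were lower and 160 (19.5%) higher, with a median of 0.08. The ZNF genes of chromosome 19 had a median of -1.68 and quartiles of -4.07 and -0.29.

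The lower calls were spread along chromosome 19. In windows of 10 Mb by gene start, the share of ZNF genes lower in FR2 was 36.8% of 19 in the first window, 71.9% of 32 in the second, 59.3% of 27 in the third, 58.8% of 34 in the fourth, 61.5% of 26 in the fifth and 60.2% of 98 in the last. None of the first 4 windows held a ZNF gene called higher. Other genes were lower in 31.8% of 107 in the last window and in 0 to 15.8% in the first 5. Elsewhere chromosome 12 had 8 of 12 ZNF genes lower, whereas chromosome 7 had 9 of 30 higher and 2 lower. Summed over the 465 genes, the ZNF level was 11712, 12122 and 12900 CPM in the hnCD16 libraries and 9029, 8964 and 9332 CPM in FR2, and the number of these genes with 3 counts or fewer was 2 in each hnCD16 library and 44, 46 and 48 in FR2. The CTRL libraries had 2 such genes each and the FR1 libraries 47 or 48. Many ZNF genes of a cluster have similar sequence, so the value of a single gene can include reads of a neighbour.

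The members at the ends of the range show the division between detected and not detected. ZNF614 (chromosome 19, 52012765 to 52030240 in GENCODE v44, minus strand) had 56.1, 60.3 and 68.4 CPM in hnCD16 and 0 counts in each FR2 library, at least 363-fold lower. ZNF700, also on chromosome 19, had 32.9, 36.8 and 40.4 CPM in hnCD16 and 0 counts in FR2, at least 216-fold lower. ZNF365, on chromosome 10, went from 0 counts in hnCD16 to 12.6 ± 0.416 CPM in FR2, at least 77.7-fold higher. The 2 ZNF genes with the highest mean level were ZNF207 on chromosome 17, at 547 ± 2.76 and 445 ± 11.3 CPM and below the threshold, and ZNF22 on chromosome 10, which fell 3.07-fold from 355 ± 6.75 to 116 ± 4.69 CPM. The 250 bases before the RefSeq start of ZNF614, ZNF700, ZNF365 and ZNF207 are shown because these genes were lost, lost, gained and kept in FR2. Starts are RefSeq's and differ from those of GENCODE v44: the GENCODE start of ZNF614 lies 1611 bases before its window, which is thus inside the GENCODE gene, and the GENCODE starts of the other 3 genes fall inside their windows. The sequences are RefSeq's on GRCh38.p14, written 5′ to 3′ on the gene's strand, with every CG pair in capitals:
ZNF614, chr19:52028380-52028629, minus strand: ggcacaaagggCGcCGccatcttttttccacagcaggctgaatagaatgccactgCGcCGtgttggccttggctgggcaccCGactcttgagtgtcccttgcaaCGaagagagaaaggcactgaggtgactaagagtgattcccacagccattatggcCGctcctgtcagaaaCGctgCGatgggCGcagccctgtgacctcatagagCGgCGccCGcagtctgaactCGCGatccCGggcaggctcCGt
ZNF700, chr19:11924857-11925106, plus strand: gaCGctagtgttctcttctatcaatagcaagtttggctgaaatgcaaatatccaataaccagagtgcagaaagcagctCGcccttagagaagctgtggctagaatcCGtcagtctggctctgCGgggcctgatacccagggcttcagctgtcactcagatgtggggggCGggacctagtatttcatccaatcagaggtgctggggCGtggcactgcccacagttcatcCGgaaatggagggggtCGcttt
ZNF365, chr10:62374119-62374368, plus strand: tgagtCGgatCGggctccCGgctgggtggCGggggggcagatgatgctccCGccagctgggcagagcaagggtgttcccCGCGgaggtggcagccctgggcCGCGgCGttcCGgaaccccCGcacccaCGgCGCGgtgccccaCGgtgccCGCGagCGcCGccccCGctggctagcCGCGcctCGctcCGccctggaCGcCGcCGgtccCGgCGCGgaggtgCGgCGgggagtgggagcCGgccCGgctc
ZNF207, chr17:32349907-32350156, plus strand: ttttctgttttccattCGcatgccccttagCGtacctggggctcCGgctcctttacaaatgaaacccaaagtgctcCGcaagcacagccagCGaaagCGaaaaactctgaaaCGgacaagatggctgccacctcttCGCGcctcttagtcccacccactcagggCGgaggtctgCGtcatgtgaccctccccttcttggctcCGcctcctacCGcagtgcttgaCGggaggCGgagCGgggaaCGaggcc

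CG pairs are the bases at which DNA is methylated in human cells, and promoters rich in them tend to be active in many cell types. CG reads the same on both strands, and the windows of ZNF614, ZNF700, ZNF365 and ZNF207 held 17, 8, 35 and 17 pairs. A promoter window was found for 10985 of the 13657 genes tested, and for 1771 of the 2224 members. The lost ZNF614 and the kept ZNF207 thus had the same number. For ZNF genes of chromosome 19 the median was 15 pairs in 124 genes lower in FR2 and 17.5 in 82 genes not called. Over all genes tested it was 18 in genes lower, 20 in genes higher and 21 in genes not called, and 93.6% of all 27305 promoter windows held at least 1 pair. Secreted proteins had the lowest medians, 7 pairs in 61 genes lower, 12 in 78 higher and 16 in 81 not called. DNA methylation was not analysed here.

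Secreted proteins were the class with the highest share of calls. Of 318 tested, 119 (37.4%) rose and 87 (27.4%) fell, so 64.8% were DEGs against 39.5% of all genes tested. Granule proteins (13 of 15 called, 7 higher and 6 lower) and cytokines (29 of 38 called, 17 higher and 12 lower) had the highest shares. Of 16 chemokines tested, 9 rose and 2 fell. Their median log2 fold change was 3.85 as fitted, and 1.30 when genes at 3 counts or fewer in each library of a group were set at that floor. Those that rose include CCL3, CCL3L1, CCL3L3, CCL4, CCL4L1 and CCL4L2. The CCL3 and CCL4 genes have near-identical copies that share reads, so these are not independent measurements. Growth factors had 24 of 77 higher and 15 lower, plasma and carrier proteins 20 of 55 higher and 13 lower, matrix proteins 22 of 62 higher and 20 lower, and proteases with their inhibitors 20 of 55 higher and 19 lower.

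Granule and cytokine genes moved in both directions. GZMB, the protease that kills target cells after perforin entry, had 0.544, 0.702 and 0.903 CPM in hnCD16 and 2493, 2569 and 2609 CPM in FR2 (3569-fold, adjusted p = 2.19e-22). Its proteoglycan carrier SRGN (serglycin) rose 12.1-fold, from 52.0, 49.5 and 45.5 CPM to 606, 595 and 575 CPM. SERPINB1, a mostly intracellular inhibitor of granule proteases, rose 67.5-fold, from 111, 115 and 104 CPM to 7577, 7316 and 7302 CPM, and CTSC, which activates granzymes by cleavage, rose 4.72-fold to 1085 ± 25.4 CPM. CTSG, a protease of myeloid granules, went from 6.02 ± 0.731 CPM to 0 counts, at least 35.4-fold lower. IFNG had 3 counts in total in hnCD16 and 224, 226 and 224 CPM in FR2, a ratio of 4175 (1428 to 20246). TNF went from 12.1, 10.4 and 11.4 CPM to 0 counts in all FR2 libraries, at least 66.4-fold lower. IL32 rose 2.71-fold to 958 ± 26.1 CPM. MIF, a constitutively made cytokine, was at 335 ± 14.7 and 337 ± 14.6 CPM, with overlapping groups and an adjusted p of 0.932.

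Growth factors and matrix genes were among those gained from near 0. HGF, the ligand of the MET receptor, had 4 counts in total in hnCD16 and 639, 619 and 626 CPM in FR2, a ratio of 8745 (3415 to 32096). STC1, a secreted glycoprotein hormone, had 0 counts in hnCD16 and 27.4, 26.1 and 26.0 CPM in FR2, at least 164-fold higher. COL6A3, a chain of collagen VI, had 3 counts in total in hnCD16 and 140.2, 136 and 133 CPM in FR2, a ratio of 2529 (865 to 12265). The galectins LGALS1 and LGALS3, which bind cell surface glycans, rose to 611 ± 25.9 and 167 ± 2.54 CPM, 8.72-fold and by a ratio of 488 (313 to 812). ALB, better known as the plasma albumin of the liver, had 0.218, 0.0540 and 0.106 CPM in hnCD16 and 113, 114 and 109 CPM in FR2, a ratio of 892 (433 to 2220, adjusted p = 2.02e-20). PRSS23, a serine protease, had 0 counts in hnCD16 and 12.9 ± 0.423 CPM in FR2. MANF, a factor released under stress of the endoplasmic reticulum, was at 165 ± 6.87 and 159 ± 3.41 CPM and did not pass the test.

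Losses in this class included proteases, matrix proteins and a chemokine. The metalloprotease ADAMTS1 and the metalloprotease inhibitor TIMP2 had 11.6 ± 1.05 and 10.3 ± 1.34 CPM in hnCD16 and 0 counts in FR2, at least 68.1-fold and 60.9-fold lower. CRISPLD1 (14.4 ± 0.448 CPM), the matrix protein FBLN2 (6.65 ± 0.633 CPM) and ANGPTL2 (5.58 ± 0.409 CPM) were likewise without a count in the FR2 libraries. The chemokine XCL1, a ligand that attracts dendritic cells, had 4.41, 5.24 and 6.22 CPM in hnCD16 and 0 counts in FR2, whereas CCL5 rose from 6.10 ± 0.522 to 48.8 ± 1.62 CPM. XCL1 has a near-identical copy, XCL2, and its level is uncertain. CCL28 (3.70 ± 0.532 and 2.44 ± 0.380 CPM), NUCB2 (489 ± 70.5 and 255 ± 15.5 CPM) and the lysosomal precursor PSAP (213 ± 10.6 and 166 ± 2.47 CPM) stayed below the fold threshold.

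**Figure D1:**
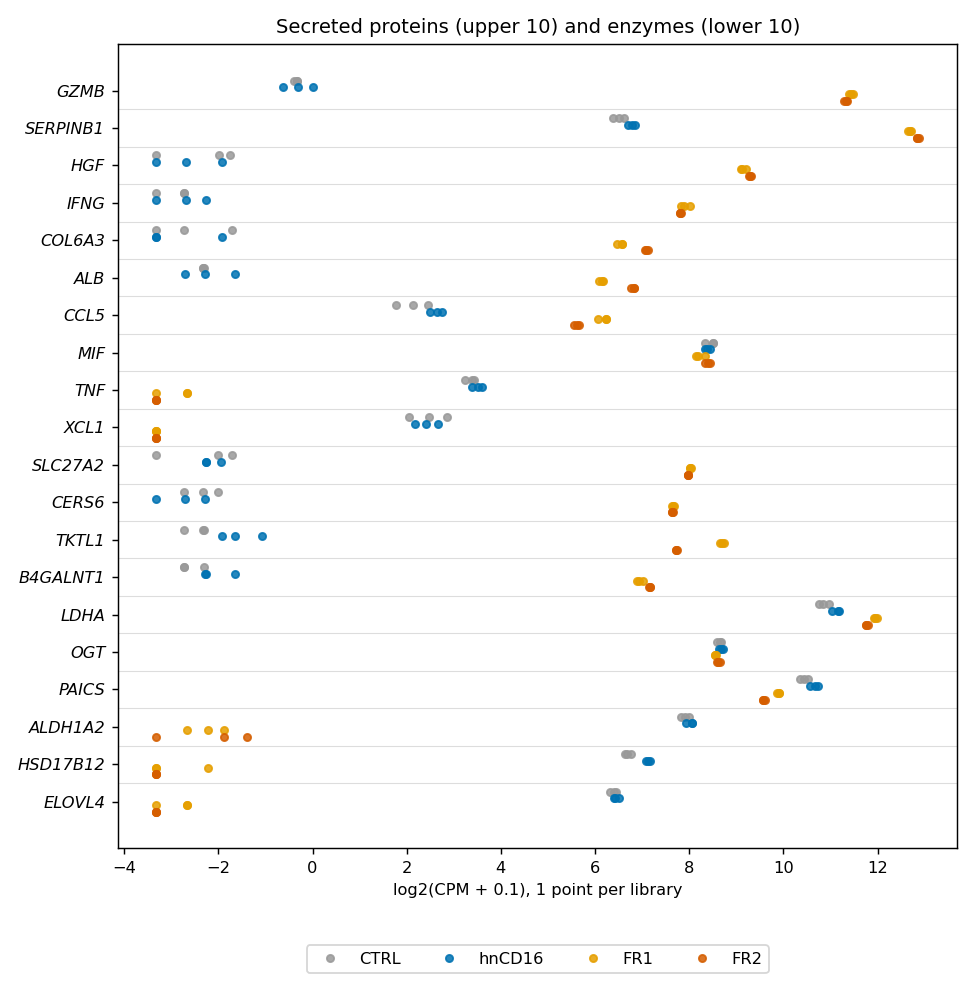
Levels of 10 genes of secreted proteins (upper rows) and 10 of enzymes (lower rows) in the 12 libraries, as log2(CPM + 0.1) with 1 point per library. HSD17B12, ELOVL4, TNF and XCL1 reach the left edge, which is 0 counts, in FR2, and MIF and OGT lie close in all 4 groups.

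Metabolic enzymes as a class stood near the background. Of 1063 tested, 239 (22.5%) rose and 210 (19.8%) fell, 42.2% in all, and the median log2 fold change was 0.04. Lipid and glycan enzymes were the groups with most gains: 60 of 184 enzymes of phospholipids, inositol and sphingolipids rose and 23 fell, and 55 of 191 glycan enzymes rose and 37 fell. Central carbon enzymes had 22 of 109 higher and 18 lower, amino acid enzymes 24 of 126 higher and 27 lower, nucleotide enzymes 20 of 116 higher and 26 lower, fatty acid enzymes 16 of 94 higher and 22 lower, steroid and eicosanoid enzymes 20 of 102 higher and 25 lower, and redox, folate and sterol enzymes 22 of 141 higher and 32 lower.

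The central carbon enzymes of highest mean CPM stayed below the fold threshold. GAPDH was at 5154 ± 248 and 5946 ± 156 CPM and LDHA at 2236 ± 121 and 3475 ± 53.6 CPM, with log2 differences of 0.21 and 0.64. TKTL1, a relative of the pentose phosphate enzyme transketolase, had 0.218, 0.162 and 0.372 CPM in hnCD16 and 212, 211 and 213 CPM in FR2, a ratio of 843 (502 to 1542, adjusted p = 7.01e-21). MINPP1, an inositol polyphosphate phosphatase listed in this group, had 19.5 ± 1.92 CPM in hnCD16 and 1 count in total in FR2, a ratio of 1033 (185 to 40823).

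A highly expressed enzyme of nucleotide synthesis and one of polyamine synthesis fell. PAICS, an enzyme of purine synthesis, went from 1634, 1707 and 1522 CPM to 779.8, 762 and 754 CPM (log2 fold change -1.08 ± 0.0533, adjusted p = 2.18e-12), and ODC1, which makes putrescine from ornithine, from 940.4, 952 and 859 CPM to 456, 452 and 438 CPM (-1.03 ± 0.0573, adjusted p = 1.21e-11). Both values lie just past the fold threshold, and ODC1 was at -0.99, short of it, in a fit of the 6 FR2 and hnCD16 libraries alone. AMD1, the next enzyme toward the polyamines, differed by -0.21 and NME2, a nucleoside diphosphate kinase, by 0.08. CMPK2, a mitochondrial nucleotide kinase known as an interferon-stimulated gene, had 40.1 ± 2.07 CPM in hnCD16 and 1 count in total in FR2, a ratio of 2123 (381 to 83901). PDE4B, which degrades cyclic AMP, had 0 counts in hnCD16 and 8.90, 9.56 and 9.61 CPM in FR2, at least 57.9-fold higher. The sarcosine dehydrogenase SARDH had 11.9 ± 0.491 CPM in hnCD16 and 0 counts in FR2, and HPDL had 1 count in total in hnCD16 and 6.58 ± 0.826 CPM in FR2.

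Fatty acid enzymes held complete losses and a gain from a few counts. HSD17B12, the ketoacyl-CoA reductase of the elongation cycle, had 144, 139 and 136 CPM in hnCD16 and 0 counts in FR2, at least 823-fold lower. ELOVL4, an elongase of very long chains, had 85.4, 91.2 and 84.3 CPM and 0 counts, at least 512-fold lower. HACD3, a dehydratase of the same cycle, was at 307 ± 15.7 and 326 ± 13.5 CPM (adjusted p = 0.166). SLC27A2, an acyl-CoA synthetase and fatty acid transporter, had 7 counts in total in hnCD16 and 252, 252 and 252 CPM in FR2, a ratio of 2007 (974 to 4993). OXCT1, which activates ketone bodies, was at 277 ± 16.9 and 518 ± 8.65 CPM, a log2 difference of 0.90 below the threshold.

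Several sphingolipid and glycan enzymes rose. The ceramide synthase CERS6 had 3 counts in total in hnCD16 and 202, 199 and 199 CPM in FR2, a ratio of 3711 (1270 to 17999), and CERS2, the synthase for very long chains, rose 3.36-fold to 451 ± 9.92 CPM. PLD1, which makes phosphatidic acid, had 1 count in total in hnCD16 and 65.0, 63.8 and 70.6 CPM in FR2, a ratio of 3702 (664 to 146253). B4GALNT1, the synthase of the gangliosides GM2 and GD2, had 0.218, 0.108 and 0.106 CPM in hnCD16 and 144, 141 and 144 CPM in FR2, a ratio of 996 (505 to 2308, adjusted p = 1.12e-20), and GALNT1, which starts O-glycans, rose 3.18-fold to 721 ± 15.2 CPM. Against these, the phospholipase C gene PLCB1 had 26.2, 23.9 and 31.0 CPM in hnCD16 and 0 counts in FR2. The sulfotransferase CHST10, which makes the HNK-1 epitope, went from 21.8 ± 1.52 CPM to 0 counts, at least 128-fold lower. GNPDA1, an enzyme of glucosamine breakdown, had 69.2 ± 2.21 CPM and 1 count in total, a ratio of 3669 (658 to 144948). OGT, which adds O-GlcNAc to proteins, was at 409.6 ± 10.8 and 394 ± 9.81 CPM and did not pass the test. SELENOI, an ethanolamine phosphotransferase, differed by -0.81.

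Enzymes of signalling lipids and redox balance completed the class. HSD11B1, which regenerates active cortisol, had 0 counts in hnCD16 and 32.2, 33.9 and 29.7 CPM in FR2, at least 198-fold higher. ALDH1A2, the main enzyme that makes retinoic acid in embryonic tissue, fell from 267, 265 and 245 CPM to 0.280, 0 and 0.172 CPM, a ratio of 1715 (870.1 to 3973). NOX5, a calcium-regulated NADPH oxidase, had 0 counts in hnCD16 and 8.28 ± 0.733 CPM in FR2, at least 51.2-fold higher, and GGT7 went from 16.8 ± 1.38 CPM to 0 counts. PRDX1, SOD1, ADH5 and PTGES3, the members of highest mean CPM in these groups, differed by -0.82, -0.20, -0.83 and -0.95 on the log2 scale, and none passed the fold threshold.

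Loss to 3 counts or fewer in every FR2 library was counted over all members. Of the genes called lower, 74 transcription factors, 42 genes of secreted proteins and 47 of metabolic enzymes were at this floor, against 666 (4.88%) of all genes tested, so the shares were 8.78%, 13.2% and 4.42% of the members tested. In the other direction, 35, 37 and 30 members called higher were at 3 counts or fewer in every hnCD16 library, or 4.15%, 11.6% and 2.82%, against 477 (3.49%) of all genes tested. Homeobox genes (15 of 58) and ZNF genes (37 of 465) made up most of the transcription factors lost. A gene at the floor in one group can pass the filter on low counts through the other group alone, so these counts are a description.

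Few of these genes also differed between the 2 fusion receptors. FR2 against FR1 gave 264 DEGs (1.93% of genes tested), 204 (1.49%) higher and 60 (0.439%) lower in FR2. This comparison uses the same FR2 libraries as the one with hnCD16. Over all genes tested, 224 (1.64%) were called in both, 170 of them higher and 54 lower in FR2 than in FR1. Among members these were 16 of 843 transcription factors tested (13 higher in FR2 than in FR1), 19 of 318 secreted proteins (8 higher) and 15 of 1063 metabolic enzymes (14 higher). The shares of transcription factors and enzymes lay near that of all genes tested, and the share of secreted proteins lay above it. Of 465 ZNF genes, 1 was higher and 1 lower in FR2 than in FR1, both of them also called against hnCD16.

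Of the transcription factors called in both comparisons with a mean of at least 5 CPM in FR2 or hnCD16, the 5 that differed most from FR1 are given here. KLF2, a factor of lymphocyte quiescence and trafficking, was at 0.179 ± 0.0798 CPM in hnCD16, 1.10, 1.45 and 1.14 CPM in FR1 and 6.88, 6.96 and 7.55 CPM in FR2, 5.80-fold above FR1 (adjusted p = 2.34e-08). ZNF732 was at 1.06 ± 0.219 CPM in hnCD16, 3.13 ± 0.479 CPM in FR1 and 9.68 ± 0.402 CPM in FR2. ZNF155 had 10.9 ± 0.0458 CPM in hnCD16, 0.345 ± 0.0989 CPM in FR1 and 1 count in total in FR2. HES1 and AEBP1 had 6 and 4 counts in total in FR1, and FR2 exceeded FR1 by ratios of 3.77 (1.49 to 11.3) and 3.44 (1.08 to 14.3), at levels below 1 CPM in both groups.

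All 7 chemokines called in both comparisons were lower in FR2 than in FR1. CCL3, a chemoattractant of monocytes and lymphocytes, had 0 counts in hnCD16, 64.0, 57.9 and 63.9 CPM in FR1 and 5.32, 6.51 and 4.58 CPM in FR2, 11.3-fold lower in FR2 than in FR1 (log2 fold change -3.50, adjusted p = 1.94e-11). The others were CCL3L1, CCL3L3, CCL4, CCL4L1, CCL4L2 and CXCL13, named after their values were seen. The CCL3 and CCL4 genes have near-identical copies that share reads, so these are not 6 independent measurements. CXCL13, which attracts B cells, had 5.03 CPM in FR1 and 1.83 CPM in FR2 on average. GNLY (granulysin), a pore-forming granule protein, was at 31.6, 28.6 and 28.0 CPM in FR1 and 9.90, 9.90 and 8.81 CPM in FR2, 3.08-fold lower (adjusted p = 4.99e-08).

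Of the 11 other secreted members called in both, 8 were higher and 3 lower in FR2 than in FR1. CLU, an extracellular chaperone, had 4.69, 4.57 and 5.14 CPM in FR1 and 29.4, 30.0 and 28.9 CPM in FR2, 6.14-fold more (adjusted p = 2.08e-10). The protease inhibitor SLPI had 2.55 ± 0.0444 CPM in FR1 and 9.98 ± 0.359 CPM in FR2, 3.91-fold more. Both were at or near 0 in hnCD16, with SLPI at 0 counts. The 3 lower members, named after their values were seen, were MMP7, a matrix protease (3.11 CPM in FR1 and 0.113 CPM in FR2, a ratio of 27.5 with an interval of 12.4 to 76.0), the cytokine LTA (0.558 and 0.189 CPM) and the collagen gene COL24A1 (1.21 and 0.528 CPM).

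The enzymes called in both comparisons were higher in FR2 than in FR1 except HSD11B1. HSD11B1 was at 82.4, 79.0 and 78.1 CPM in FR1, 2.50-fold above FR2. ALOX5AP, the protein that presents arachidonic acid to the leukotriene-forming lipoxygenase, was at 64.5 ± 6.10 CPM in hnCD16, 3.88, 3.93 and 3.48 CPM in FR1 and 10.6, 11.9 and 11.0 CPM in FR2 (2.96-fold above FR1, adjusted p = 2.15e-07). SMPD2, a neutral sphingomyelinase, was at 13.8 ± 0.429, 0.576 ± 0.0612 and 1.73 ± 0.104 CPM, and AGPAT4, an acyltransferase of phospholipid synthesis, at 8.02 ± 0.842, 1.13 ± 0.581 and 3.09 ± 0.0957 CPM in hnCD16, FR1 and FR2. NOX5 was 2.83-fold higher in FR2 than in FR1. ACADS, an enzyme of short-chain fatty acid oxidation, was at 5.04 ± 0.108 CPM in hnCD16 and below 1 CPM in both fusion receptor groups. TKTL1, at 428, 402 and 417 CPM in FR1, was 1.96-fold above FR2, just under the fold threshold.

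**Figure D2:**
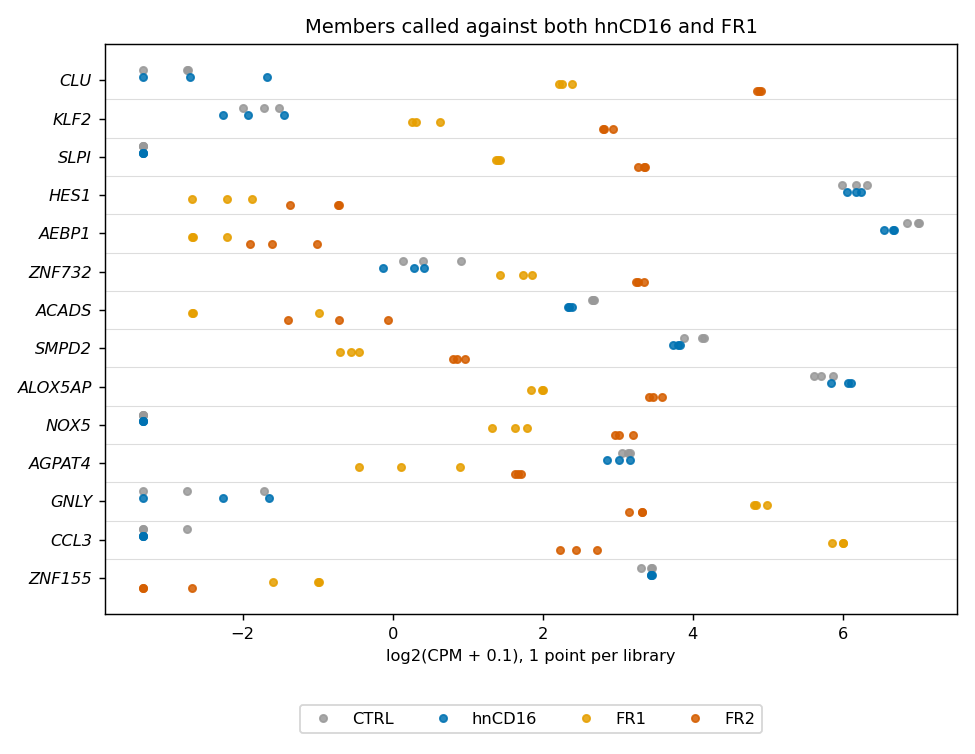
Levels of 14 members called in FR2 against both hnCD16 and FR1, as log2(CPM + 0.1) with 1 point per library and ordered by the log2 fold change of FR2 minus FR1. The FR2 points lie to the right of the FR1 points from CLU to AGPAT4, except for ACADS, where the 2 groups overlap. They lie to the left for GNLY, CCL3 and ZNF155.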

How the data were processed

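Total RNA of cells that the study describes as YT was sequenced after ribosomal RNA depletion, in 12 libraries, 3 each of CTRL, hnCD16, FR1 and FR2. Per the study's methods and the submitters' processing notes, SOAPnuke served the authors for trimming, HISAT2 2.1.0 for mapping (genome build GRCh38.p13) and RSEM 1.3.1 for quantification. Bowtie2 2.3.4.3 is also named in those notes. The deposited expected counts are RSEM estimates per gene without normalization, and the deposited TPM values (transcripts scaled to a fixed sum per library) are the authors' own, from the same reads. Whether counting used strand is not given in the sources used here. A further 40 value columns (FPKM, normalized counts and averages) were not used, nor was a transcript table.

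Expected counts were rounded to whole numbers. Of 17589 genes, 13657 were kept by filterByExpr with the groups given. They were tested in R 4.3.3 with edgeR 4.0.16 (quasi-likelihood, TMM factors). A single fit held the 4 groups, and its common dispersion was 0.00312. P-values were adjusted by Benjamini-Hochberg over all genes tested. The SE given with a log2 fold change is its absolute value divided by the square root of edgeR's F statistic. It is back-calculated from the test and is not a fitted standard error. The thresholds for DEGs, a log2 fold change of 1 in either direction and an adjusted p of 0.05, are those of the study, which used DESeq2. The members and lists were chosen with earlier results of these data known. Named genes were the DEGs of highest and lowest log2 fold change in each group and the 5 highest and 5 lowest of each class (mean of at least 5 CPM in the higher group), the 2 members of highest mean CPM in each group, the 5 members of each class that differed most from FR1 among those called in both comparisons, and the construct genes, 113 in all. The values of some of these genes are not reported here. Against a group with 0 counts in all libraries a fold change is a bound from 3 counts per library. Where a lower group had counts, but 3 or fewer in at least 1 library, its fold change is the ratio of the group's summed counts, scaled by library size, given with its 95% exact binomial interval. Bounds and intervals cover counting error only.

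On simulated counts for this comparison, 197 of 199 genes changed by a log2 fold change of 2 were called and 1 unchanged gene was called, among 13406 genes tested. The counts were drawn from each gene's mean over the 12 libraries, with 200 genes changed and the same spread for every gene. The data held 5391 DEGs, so the simulation does not measure false calls or normalization in them. Replicates of a group were not identical and differed by more than sampling noise. Alternatives were DESeq2 1.42.0, RLE normalization, limma 3.58.1 on log2 TPM with a pseudocount of 1 or 0.1, other filters and thresholds, smaller fits, the replicate block and leaving out each library. Figures were drawn with matplotlib 3.10.9.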

Additional observations from a re-analysis of the deposited data

How the results depend on the processing

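The counts of each class in each direction stayed within 1.5 times of the values above with DESeq2, RLE normalization, no filter on low counts, the 6 libraries of the comparison alone, both limma fits and the omission of any library. Without one library, DEGs were 5433 to 5506 and ZNF genes lower in FR2 196 to 200. Requiring at least 10 counts in every library removed the genes at 0 in one group by construction and left 3151 DEGs, 103 transcription factors higher and 160 lower, 43 secreted proteins higher and 18 lower, 115 metabolic enzymes lower, 116 ZNF genes lower, and 3 transcription factors, 0 secreted proteins and 6 metabolic enzymes called against both hnCD16 and FR1. Without a fold threshold there were 10943 DEGs, 294 transcription factors higher, 453 metabolic enzymes higher and 408 lower, 114 ZNF genes higher, and 206 transcription factors, 83 secreted proteins and 377 metabolic enzymes called in both comparisons. With a log2 fold change of at least 2 there were 3063 DEGs, 103 transcription factors higher, 127 metabolic enzymes higher and 118 lower, 12 ZNF genes higher, and 4, 7 and 2 members called in both. With limma on log2(TPM + 1), 4 transcription factors, 9 secreted proteins and 3 metabolic enzymes were called in both, and the cause was not tested.

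MIF, which was not called in any fit, changed sign: its log2 fold change was -0.00 without a filter, -0.01 with 10 counts in every library, -0.05 in both limma fits, and -0.03 to 0.04 when one library was left out, below 0 without FR2 replicate 2 (-0.02) and without hnCD16 replicate 3 (-0.03). NUCB2 passed the threshold without hnCD16 replicate 1, at -1.02. With limma on log2(TPM + 1), AGPAT4 (-0.74) and FCGR3B lost their calls, FCGR3B just short of the fold threshold, and PTGES3 gained one. On log2(TPM + 0.1), PTGES3 and NUCB2 gained calls. ODC1 lost its call in the fit of 6 libraries. Replicate numbers did not pair the libraries: the deviations of same-numbered FR2 and hnCD16 libraries correlated at 0.0766, 0.0133 and 0.171. With the replicate block 5395 genes were called, 5383 of them among the 5391.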

Other observations

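Calls were unevenly spread over chromosomes. On chromosome 13, 81 of 235 genes tested (34.5%) were lower in FR2 than in hnCD16 and 35 higher, with a median log2 fold change of -0.53. On chromosome 1, 186 of 1357 (13.7%) were lower and 352 (25.9%) higher, with a median of 0.20. The medians of the other autosomes and chromosome X lay between -0.26 (chromosomes 6 and 21) and 0.19 (chromosome 22). No test was made of these differences.

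Some regulators at low levels also differed between the fusion receptors, and they are named here after their values were seen. TOX2, a factor of NK and T cell maturation, had 0.0181 CPM in hnCD16, 0.154 CPM in FR1 and 2.32 CPM in FR2 on average. ETV5, an ETS factor, had 52.9 CPM in hnCD16, 1.10 CPM in FR1 and 2.43 CPM in FR2 (FR2 against FR1, adjusted p = 4.38e-05).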
